A study of Mus musculus with 88 samples.

Results

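The receptor genes for early leukocyte chemoattractants followed here were C5ar1, C3ar1, Fpr1, Fpr2 and Ptafr. They were found in the platform's probe annotation through their Entrez identifiers. Of the 5 genes, 4 had a probe, and the annotation listed none for Fpr1. The 4 genes had 7 probes, of which 5 could be tested, among the 13260 tested probes of 10518 genes in all. One further C3ar1 probe (5937) and one further Ptafr probe (2941) had a value of exactly 0 on every array and gave no measurement. C5ar1 was left with 2 probes (533 and 2878), annotated to the same RefSeq transcript, and C3ar1 (15654), Fpr2 (6839) and Ptafr (1799) with 1 each. The probes' own sequences were not used here, so which part of a transcript each one binds was not examined.

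These receptors are G protein-coupled receptors on myeloid cells and can signal through the inhibitory G protein Gi. C5ar1 and the formyl peptide receptors steer neutrophils and macrophages toward sites of infection and injury. C5ar1 binds the complement fragment C5a and C3ar1 the fragment C3a, both released when complement is cleaved. Formyl peptide receptors bind N-formylated peptides of bacteria and mitochondria; Fpr2 also binds host ligands such as serum amyloid A and annexin A1. Ptafr is the receptor for platelet-activating factor, a phospholipid mediator.

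The cells were RAW 264.7, a mouse macrophage-like line, and all groups share it. The treatments were LPS (lipopolysaccharide, the Gram-negative endotoxin sensed by Toll-like receptor 4) at 100 ng/ml with either ISO or PGE2, LPS alone, ISO (isoproterenol, a beta-adrenergic agonist) at 50 nM alone and PGE2 (prostaglandin E2) at 10 µM alone, each for 1, 2 or 4 h. The labels name 100 pM of lipid binding protein beside LPS alone and do not name it for the combinations. Each array compared RNA of treated cells with that of time-matched cells in medium, so medium is the reference of every ratio. The 88 two-colour arrays made 44 sets of 2 arrays with swapped dyes. Each of the 15 groups had 3 sets, except PGE2 at 1 h, which had 2.

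Unless stated otherwise a value is a log2 ratio, treated over medium, averaged over the 2 arrays of a set, and the SD is the spread between sets. The deposited table does not state the direction of its ratios. Treated over medium is likely, since 10 known LPS targets had a median of 2.18 to 3.49 on 18 of 18 arrays with LPS alone once signs were turned by dye, but those targets were chosen with earlier results of these data known. The table holds ratios only, so it gives no level of any receptor, and one gene's abundance cannot be set against another's. Whether the sets are separate cultures is not stated, so the p-values reflect set-to-set spread alone, which may be technical. Nor do the labels say whether treatments of the same time and set were compared with the same medium RNA. Between 10.9% and 45.7% of probes per array were at exactly 0. Precision is limited by how many arrays there were.

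The cell type could not be checked by level, since ratios carry none. With LPS at 4 h, 9 probes for 9 of 10 listed macrophage genes were measured; 3 were higher and 2 lower (14.2% and 15.1% of all probes), with a range of −0.68 (Csf1r) to 1.07 (Mrc1). Of 28 probes for 19 of 20 listed genes of other cell types, 3 were higher (14.2% of all probes), and the list ranged from −0.12 to 0.26. In bulk RNA, a change in the share of cells that express a gene and a change of RNA per cell cannot be told apart.

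The sequence before the annotated start of 3 receptor genes is shown because their probes followed different courses: C5ar1 probe 533 passed the test with every treatment by 2 h, while C3ar1 and, with 1 exception, Fpr2 passed it at 4 h and with LPS. Each run is the 250 bases before the start, 5′ to 3′ on the gene's own strand, from RefSeq on build GRCm38.p6, with motif matches in capitals.
C5ar1 (chr7:16259339-16259588, minus strand): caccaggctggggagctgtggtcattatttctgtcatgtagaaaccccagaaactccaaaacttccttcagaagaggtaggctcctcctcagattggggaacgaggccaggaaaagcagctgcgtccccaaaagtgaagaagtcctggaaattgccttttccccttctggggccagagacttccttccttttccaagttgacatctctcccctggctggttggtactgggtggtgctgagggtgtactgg
C3ar1 (chr6:122856158-122856407, minus strand): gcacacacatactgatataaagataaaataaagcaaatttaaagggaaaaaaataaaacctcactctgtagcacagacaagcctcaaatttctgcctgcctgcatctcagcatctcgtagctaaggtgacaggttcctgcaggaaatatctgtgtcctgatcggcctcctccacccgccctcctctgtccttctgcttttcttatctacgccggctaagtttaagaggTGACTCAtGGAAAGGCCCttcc
Fpr2 (chr17:17887574-17887823, plus strand): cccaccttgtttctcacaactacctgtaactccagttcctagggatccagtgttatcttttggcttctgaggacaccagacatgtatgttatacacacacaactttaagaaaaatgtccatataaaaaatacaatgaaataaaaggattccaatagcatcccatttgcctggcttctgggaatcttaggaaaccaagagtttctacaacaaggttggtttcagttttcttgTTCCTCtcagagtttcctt

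Each window was searched on both strands for CRE (TGACGTCA), its core (TGACG, contained in CRE), AP-1 (TGANTCA), C/EBP (TTGCNNAA), PU.1 (GAGGAA), NF-kB (GGG, any 5 bases, CC) and ISRE (GAAA, any 2 bases, GAAA). Motifs and window were chosen after these sequences had been displayed. The C5ar1 window held none of the 7. The C3ar1 window held an AP-1 match, TGACTCA, 22 to 16 bases before the start. Next to it, 14 to 5 bases before, was an NF-kB match on the strand opposite to the printed one, where it reads GGAAAGGCCC as printed. The Fpr2 window held a PU.1 match on the minus strand 19 to 14 bases before the start, and that of Ptafr, not printed, held 1 on the minus strand 242 to 237 bases before. Over 32851 promoters of the same length, AP-1 occurred in 6.75%, NF-kB in 45.8%, PU.1 in 23.3%, CRE in 1.55%, its core in 17.8%, C/EBP in 9.56% and ISRE in 2.98%. A match describes letters and is no measured binding site.

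C5ar1, measured by probe 533, was higher than in medium with every treatment that included LPS, at every time. With LPS alone the 3 sets gave 1.37, 0.54 and 1.32 at 1 h. At 2 h they gave 2.04, 1.66 and 2.03. At 4 h they gave 2.47, 2.51 and 2.37. The 4 h sets lay above all sets of 1 and 2 h, and their spread was the smallest of the 3 times. The means after 1, 2 and 4 h were 1.08 ± 0.47, 1.91 ± 0.21 and 2.45 ± 0.07 (SD, n = 3 each), the last a 5.46-fold rise. All 3 passed in limma (adjusted p = 1.70e-05, 1.57e-10 and 5.72e-14), and the response differed between times (limma F test, adjusted p = 0.00011). Ranked from the highest ratio down, the probe stood at place 150 of 13260 with LPS at 4 h. Fitted on its own 3 sets alone, the probe kept its call at 4 h and lost it at 1 h (adjusted p = 0.366 in limma) and 2 h (0.0582).

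**Figure D1:**
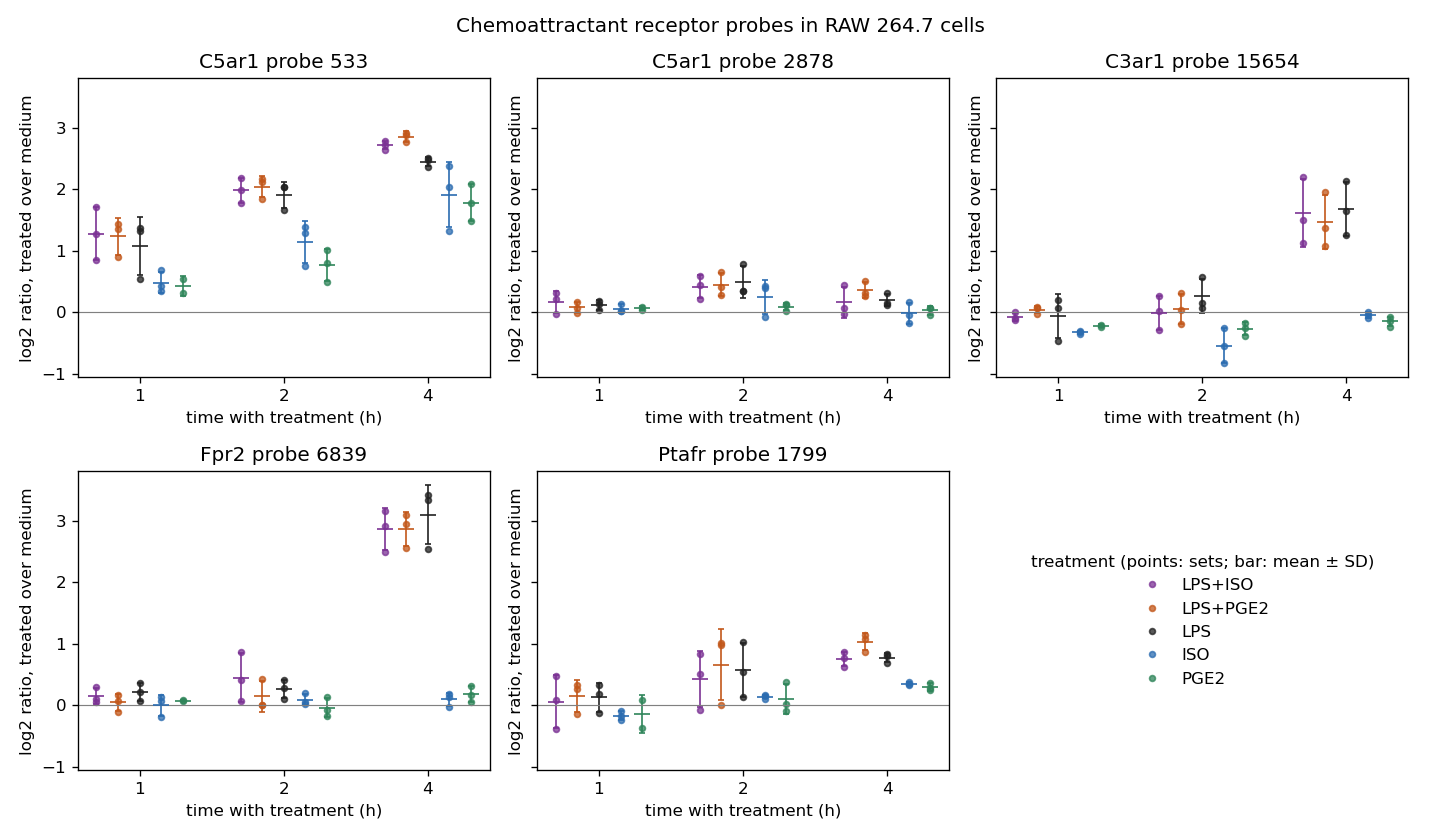
Log2 ratio of treated over medium cells (y axis) after 1, 2 and 4 h (x axis) for the 5 tested receptor probes, with 1 point per set, bars for the mean and whiskers for the SD. C5ar1 probe 533 lies above 0 in all 44 sets, whereas the Fpr2 and C3ar1 probes lie far above 0 only at 4 h in the 3 treatments with LPS.

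C5ar1 probe 533 also rose with ISO and with PGE2 without LPS. With ISO the sets were 0.42, 0.35 and 0.68 at 1 h, 1.38, 0.76 and 1.29 at 2 h, and 1.33, 2.03 and 2.38 at 4 h. Every set was above 0, and the sets of 1 h did not overlap those of 2 h or 4 h. Combined with LPS, the probe averaged 1.28, 1.98 and 2.72 with ISO and 1.23, 2.04 and 2.86 with PGE2 after 1, 2 and 4 h, all past the threshold. For ISO alone, the 1 h mean of 0.48 ± 0.17 did not pass (limma, adjusted p = 0.204). The means of 1.14 ± 0.34 at 2 h and 1.91 ± 0.54 at 4 h did (limma, adjusted p = 3.24e-05 and 2.10e-09, SD, n = 3), the latter value being 3.77-fold. Among all probes ranked by their ratio with ISO at 4 h, this one was at place 3 of 13260, and the between-time test gave an adjusted p of 0.00553 in limma, which was 0.12 without set 2 and 0.304 without set 3. Fitted on the ISO sets alone, neither call held (limma, adjusted p = 0.259 at 2 h and 0.245 at 4 h).

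With PGE2 the sets were 0.31 and 0.54 at 1 h, 0.81, 0.49 and 1.01 at 2 h, and 1.49, 1.78 and 2.08 at 4 h. All were above 0, and all 4 h sets lay above all earlier ones. The 1 h mean of 0.42 ± 0.17 (SD, n = 2) did not pass (limma, adjusted p = 0.482). At 2 h the mean was 0.77 ± 0.26 (limma, adjusted p = 0.0154), a call lost without set 1 (0.184), set 2 (0.0527) or set 3 (0.646). At 4 h it was 1.78 ± 0.30, or 3.44-fold (limma, adjusted p = 9.61e-09), place 2 of 13260 among all probes with PGE2 at that time. The between-time test gave 0.027 in limma and was lost without any 1 of the sets (0.153, 0.136 and 0.989). Fitted on the PGE2 sets alone, the adjusted p in limma was 0.326 at 2 h and 0.139 at 4 h.

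The second C5ar1 probe, 2878, did not follow the first. With LPS alone its sets were 0.13, 0.19 and 0.04 at 1 h, 0.79, 0.35 and 0.34 at 2 h, and 0.15, 0.31 and 0.12 at 4 h. It was highest at 2 h, the time at which it passed with LPS (0.49 ± 0.25, limma adjusted p = 0.000184; without set 1, 0.0516). At 4 h it averaged 0.19 ± 0.10 where probe 533 averaged 2.45 ± 0.07 (SD, n = 3). With ISO at 4 h it gave −0.04, 0.17 and −0.18, and with PGE2 at 4 h 0.07, 0.07 and −0.05, around 0 in both. Across the 44 sets the Pearson correlation of the 2 probes was 0.31. All sets share the platform, and the labels do not say whether they share medium RNA. Which of the 2 follows the C5ar1 transcript was not tested, so the values of each are those of a probe rather than of the gene.

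Probe 2878 passed in 3 further groups. With LPS and ISO at 2 h it averaged 0.41 ± 0.19 (limma, adjusted p = 0.00147; 0.0681 without set 1 and 0.0518 without set 3). With LPS and PGE2 it averaged 0.45 ± 0.18 at 2 h (limma, adjusted p = 0.000612; 0.0527 without set 1) and 0.36 ± 0.13 at 4 h (0.00256; 0.0569 without set 2). Each of its 4 calls was thus lost when 1 set or another was left out.

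C3ar1 was higher at 4 h in the 3 treatments with LPS. Its sets were 1.12, 1.51 and 2.20 with LPS and ISO, 1.08, 1.37 and 1.96 with LPS and PGE2, and 1.25, 1.64 and 2.14 with LPS alone. In all 3 treatments set 1 was lowest and set 3 highest, and the treatments overlapped. The means were 1.61 ± 0.55, 1.47 ± 0.45 and, for LPS alone, 1.68 ± 0.44, or 3.20-fold (SD, n = 3; limma, adjusted p = 4.32e-10, 3.27e-09 and 1.66e-10). At 1 h and 2 h none of these treatments passed, with means between −0.08 and 0.27. The between-time test gave 2.92e-07, 4.48e-06 and 4.82e-07 in limma. With only the sets of each group in the fit, the 3 calls at 4 h missed the threshold (adjusted p = 0.121, 0.0953 and 0.0633 in limma).

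With ISO alone the C3ar1 probe gave −0.35, −0.32 and −0.30 at 1 h, −0.83, −0.55 and −0.25 at 2 h, and −0.09, −0.04 and 0.00 at 4 h. All 6 sets of the earlier times were below 0. The 2 h mean of −0.54 ± 0.29 (SD, n = 3) missed the threshold (limma, adjusted p = 0.0699) and stood at place 13175 of 13260. It passed without set 3 (0.0144), in Cy5 arrays alone (0.0357) and among probes measured on at least 70 arrays (0.0481). It also passed with set number as a block in the fit, over all times (0.00506) or within each (0.00138), and under no other setting. With PGE2 alone every set was below 0, the 3 means lay between −0.27 and −0.15, and none passed. At 2 h the probe stood at place 13008 of 13260 with PGE2.

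Fpr2 was near 0 at 1 h and 2 h with LPS and high at 4 h. With LPS alone the sets were 0.35, 0.06 and 0.22 at 1 h, 0.29, 0.10 and 0.40 at 2 h, and 2.55, 3.34 and 3.42 at 4 h. No set of 1 or 2 h came near those of 4 h. The 4 h mean of 3.10 ± 0.48 (SD, n = 3) was 8.58-fold (limma, adjusted p = 2.61e-18), and the probe stood at place 77 of 13260. With LPS and ISO the 4 h sets were 2.50, 2.92 and 3.17 (mean 2.86 ± 0.34, limma adjusted p = 2.02e-17). With LPS and PGE2 they were 2.56, 2.95 and 3.10 (mean 2.87 ± 0.28, limma adjusted p = 1.95e-17). Again the 3 treatments overlapped.

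The earlier times held 1 Fpr2 call. With LPS and ISO at 2 h the sets were 0.87, 0.07 and 0.40 (mean 0.45 ± 0.40, limma adjusted p = 0.0192), and the call was lost without set 1 (0.165) or set 3 (0.158). With LPS and PGE2 at 2 h, set 1 was at 0 on both arrays for Fpr2. With ISO or PGE2 alone no Fpr2 mean passed at any time, and they lay between −0.04 and 0.18. Between times, the tests gave 1.05e-12 with LPS and ISO, 2.22e-13 with LPS and PGE2 and 8.89e-14 with LPS alone (limma F test, adjusted p).

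Other probes of the formyl peptide receptor family did not pass with LPS at 4 h. Fpr-rs3, a mouse relative, gave −0.05 on probe 9958 and 0.05 on probe 13864, and Fpr-rs4 gave 0 on a probe that was other than 0 on 22 arrays. The limma adjusted p was 0.901, 0.876 and 1. At 1 h with LPS, Fpr-rs3 probe 13864 was lower (−0.34, limma adjusted p = 0.0285; 4.28% of all probes were lower), a value singled out after it was seen.

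Ptafr showed smaller ratios. With LPS alone the sets were 0.14, 0.54 and 1.02 at 2 h and 0.83, 0.69 and 0.80 at 4 h. At 2 h they spanned a wide range, and at 4 h they lay close together. The means were 0.57 ± 0.44 (limma, adjusted p = 0.0120) and 0.77 ± 0.08, or 1.71-fold (0.000236, SD, n = 3). The 2 h call was lost without set 2 (0.207) or set 3 (0.377). With LPS and PGE2 the mean was 0.66 ± 0.57 at 2 h (adjusted p = 0.00349 in limma; 0.321 without set 2 and 0.176 without set 3), where set 1 was at 0 on both arrays, and 1.03 ± 0.14 at 4 h (limma, adjusted p = 3.72e-06). With LPS and ISO it was 0.42 ± 0.46 at 2 h (limma, adjusted p = 0.0809; 0.000505 without set 1) and 0.75 ± 0.12 at 4 h (limma, adjusted p = 0.00034). ISO and PGE2 alone gave 0.35 ± 0.02 and 0.30 ± 0.06 at 4 h, above 0 in every set, and neither passed (limma, adjusted p = 0.276 and 0.58).

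Ptafr differed by dye. The ratio with treated RNA in Cy5 exceeded that with treated RNA in Cy3 in 43 of 44 sets, by a median of 0.66, a gap larger than that of 97.8% of probes. With LPS at 4 h the sets read 1.01, 0.98 and 1.25 with treated RNA in Cy5, against 0.66, 0.40 and 0.36 with it in Cy3. All were above 0, but the 2 orientations did not overlap. In the Cy3 arrays alone the 4 h calls missed the threshold with LPS and ISO (0.213), with LPS and PGE2 (0.0501) and with LPS alone (0.0553), each an adjusted p in limma. Each set mean holds 1 array of each orientation, so both weigh equally in every Ptafr mean given above. The same median gap was 0.04 for C5ar1 probe 533, 0.10 for probe 2878, −0.04 for C3ar1 and −0.27 for Fpr2.

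**Figure D2:**
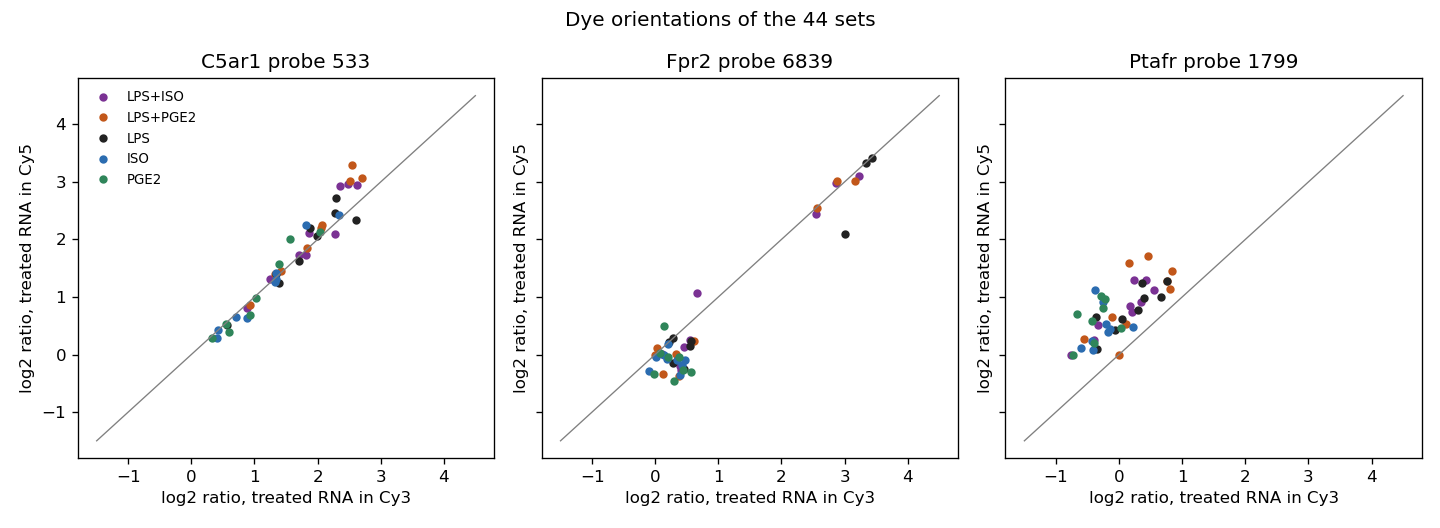
Log2 ratio with treated RNA in Cy5 (y axis) against that with treated RNA in Cy3 (x axis), 1 point for each of the 44 sets coloured by treatment, with the line of equality. C5ar1 probe 533 has a median gap of 0.04, but its 4 h sets of both combinations lie above the line by 0.32 to 0.76. The high Fpr2 values lie near the line except set 1 with LPS at 4 h (2.09 in Cy5, 3.01 in Cy3). Ptafr lies above the line in 43 of 44 sets.

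The number of receptor probes called is set here beside the share of all 13260 probes called the same way. With LPS alone 1 of 5 receptor probes was higher at 1 h (4.77% of all probes), 3 of 5 at 2 h (8.93%) and 4 of 5 at 4 h (14.2%). With LPS and ISO, 1 of 5 was higher after 1 h (4.03%), 3 after 2 h (7.9%) and 4 after 4 h (14.6%). With LPS and PGE2, 1 was higher after 1 h (4.77%), 3 after 2 h (7.74%) and 5 after 4 h (15.3%). With ISO alone 1 of 5, C5ar1 probe 533, was higher at 2 h (0.995%) and at 4 h (1.95%). At 1 h none was called in either direction, against 0.852% of all probes, and 2 had an unadjusted p under 0.05 in limma, as did 1330 of all 13260. With PGE2 alone the same C5ar1 probe was called at 2 h (0.241%) and 4 h (0.49%). At 1 h none was called in either direction (0.339%), and 1 had an unadjusted p under 0.05 in limma, as did 1293 of all 13260. The 2 C5ar1 probes share a gene, so these are not independent members.

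Between times, 3 of 5 probes passed the F test with LPS and ISO (16.8% of all probes), 4 with LPS and PGE2 (17.1%) and 3 with LPS alone (17.5%). With ISO alone 1 passed (0.551%), and with PGE2 alone 1 passed (0.0452%), C5ar1 probe 533 in both.

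Adding ISO or PGE2 to LPS was compared with LPS alone at each time. The labels name lipid binding protein for LPS alone and not for the combinations. If they are complete, its absence cannot be told apart from the added ligand in these comparisons. No receptor probe passed in any of the 6 comparisons in limma, and none had an unadjusted p under 0.05. Few probes passed at all: after 1, 2 and 4 h these were 0.00754%, 0.00754% and 0.128% with ISO added, and 0%, 0% and 0.0226% with PGE2 added. At an unadjusted p under 0.05 the limma counts over all probes were 770, 391 and 440 with ISO added and 612, 320 and 542 with PGE2 added.

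The intervals show what was left undecided. For C5ar1 probe 533 at 4 h the sets were 2.72, 2.65 and 2.78 with LPS and ISO, 2.76, 2.92 and 2.89 with LPS and PGE2, and 2.47, 2.51 and 2.37 with LPS alone. Neither combination overlapped LPS alone in these set means. The differences, 0.27 (95% interval −0.20 to 0.74) with ISO and 0.41 (−0.06 to 0.88) with PGE2, did not pass with the spread shared over all groups. With treated RNA in Cy5 the combinations also lay above LPS alone, but with it in Cy3 both overlapped LPS alone. The Cy3 arrays read 2.49, 2.36 and 2.62 with LPS and ISO and 2.51, 2.54 and 2.71 with LPS and PGE2. With LPS alone they read 2.61, 2.29 and 2.28. For Fpr2 at 4 h the differences were −0.24 (−0.62 to 0.14) with ISO and −0.23 (−0.62 to 0.15) with PGE2, and for C3ar1 they were −0.07 (−0.52 to 0.39) and −0.21 (−0.66 to 0.24). For Ptafr they were −0.02 (−0.48 to 0.44) and 0.26 (−0.21 to 0.72).

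**Figure D3:**
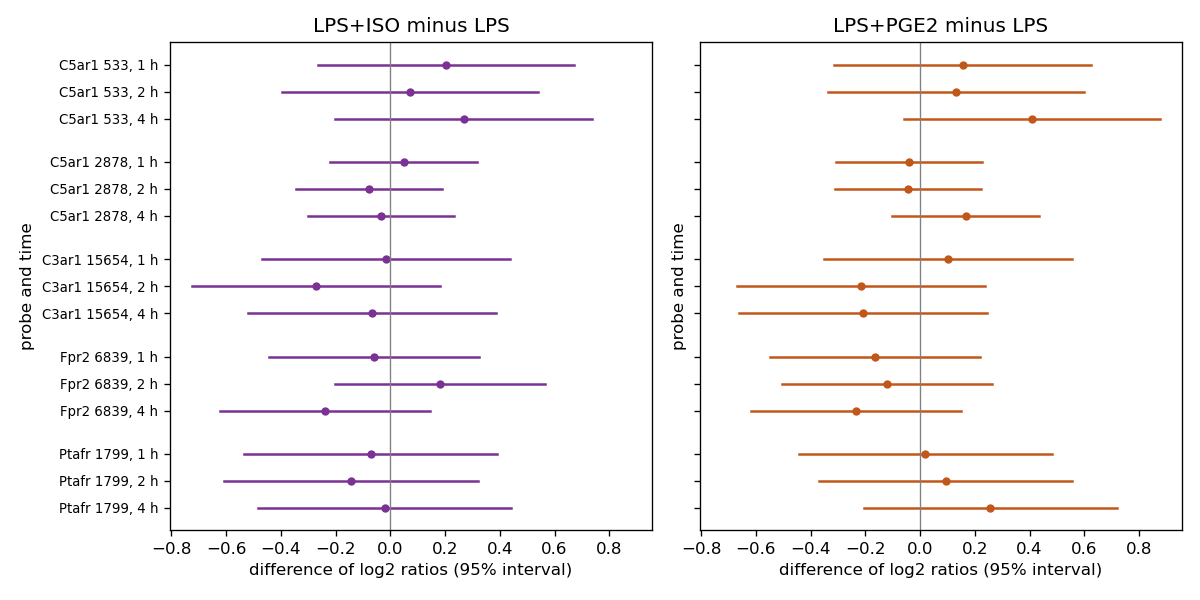
Difference of log2 ratios between each combination and LPS alone (x axis) for every receptor probe and time (y axis), with points for the estimate and lines for the 95% interval from the limma fit. Every interval covers 0, and those of C5ar1 probe 533 at 4 h reach 0.74 with ISO and 0.88 with PGE2.

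A further comparison asked whether a combination equals the sum of its single treatments on the log2 scale. For C5ar1 probe 533 with LPS and ISO the combination and the sum were 1.28 and 1.56 at 1 h, 1.98 and 3.05 at 2 h, and 2.72 and 4.36 at 4 h. The combination was below the sum at each time, by −0.28 (95% interval −0.85 to 0.29), −1.07 (−1.65 to −0.50) and −1.65 (−2.22 to −1.07). The F test over the 3 times gave an adjusted p of 0.00829 in limma; 1 of 5 receptor probes passed, against 0.0754% of all probes. That call was lost without set 1 (0.133), set 2 (0.129) or set 3 (1). With LPS and PGE2 the departures were −0.27 (−0.89 to 0.35), −0.64 (−1.21 to −0.06) and −1.37 (−1.95 to −0.80), and the F test did not pass (limma, adjusted p = 0.313). It passed in the arrays with treated RNA in Cy3 alone (0.037). In the fit of both orientations, which gave 0.313, 0% of all probes passed. In that fit 1 receptor probe had an unadjusted p under 0.05 in limma, as did 282 of all probes. Both comparisons use the same LPS sets. The labels name lipid binding protein for those sets and not for the combinations, so a departure cannot be told apart from that difference.

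**Figure D4:**
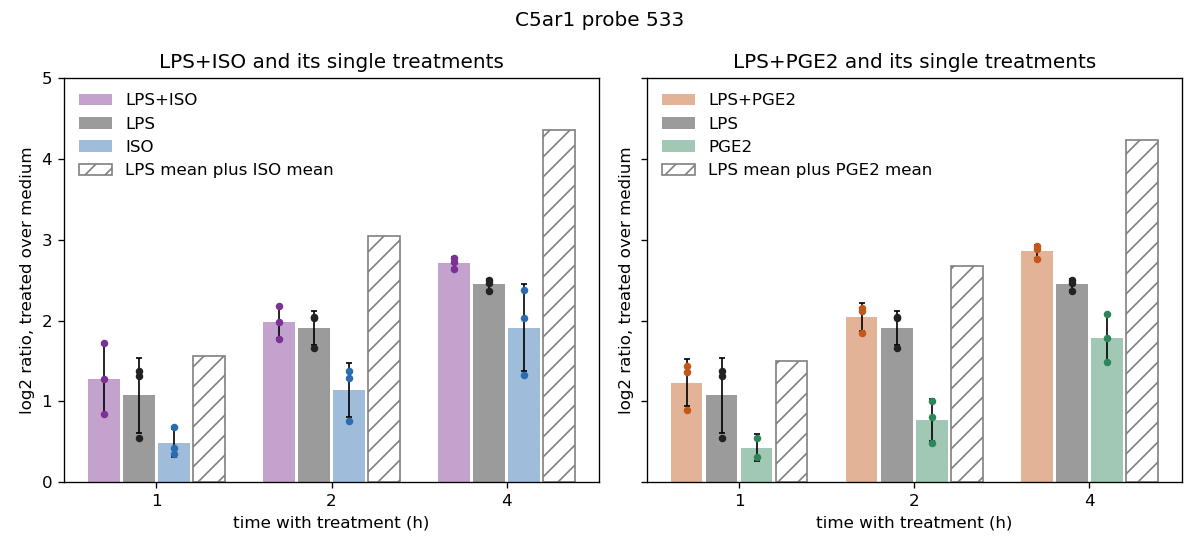
Log2 ratio of C5ar1 probe 533 (y axis) after 1, 2 and 4 h (x axis) for each combination, LPS alone and the single ligand (bars, means; points, sets; whiskers, SD), with the sum of the 2 single-treatment means as hatched bars. At 4 h the combinations averaged 2.72 with ISO and 2.86 with PGE2, below sums of 4.36 and 4.23.

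For each probe the 3 genes with the most similar values over the 44 sets were looked up among 9152 probes measured on at least 70 arrays, as a description. Tnfrsf13b, which encodes TACI, a receptor of the tumour necrosis factor receptor family, was most like C5ar1 probe 533 (Pearson r = 0.983), followed by Slc7a7 (0.919) and Slc15a3 (0.898). On that probe, 18483, Tnfrsf13b averaged 1.71 ± 0.49 with ISO, 1.53 ± 0.27 with PGE2 and 2.38 ± 0.08 with LPS at 4 h (SD, n = 3). The C5ar1 means were 1.91, 1.78 and 2.45. A second Tnfrsf13b probe, 9939, was other than 0 on 30 arrays and gave 0 with LPS at 4 h, so the likeness belongs to 1 probe of each gene.

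C3ar1 was most like the interferon-inducible genes Ifi204 (0.971) and Ifi202b (0.965), with Tor1aip2 (0.967) between them. Fpr2 was most like Zbp1, a sensor of Z-form nucleic acid (0.988), Ms4a4c (0.987) and the interferon-inducible GTPase Ifi47 (0.987). Zbp1 averaged 3.04 ± 0.20 with LPS at 4 h (SD, n = 3), where Fpr2 averaged 3.10 ± 0.48. Ptafr was most like Pim2 (0.877), the macrophage gene Adgre1 (0.87) and Prkcd (0.863), and C5ar1 probe 2878 like Foxh1 (0.81), Olr1 (0.741) and Traf5 (0.711). All sets share the array platform, and the sets of 4 h with LPS carry most of the range for C3ar1 and Fpr2. Between the receptors, r was 0.944 for C3ar1 with Fpr2, 0.742 for C3ar1 with C5ar1 probe 533 and 0.732 for Fpr2 with that probe. For Ptafr it was 0.755 with probe 533, 0.688 with C3ar1 and 0.631 with Fpr2. With C5ar1 probe 2878 it was 0.139 for C3ar1, 0.157 for Fpr2 and 0.193 for Ptafr.

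**Figure D5:**
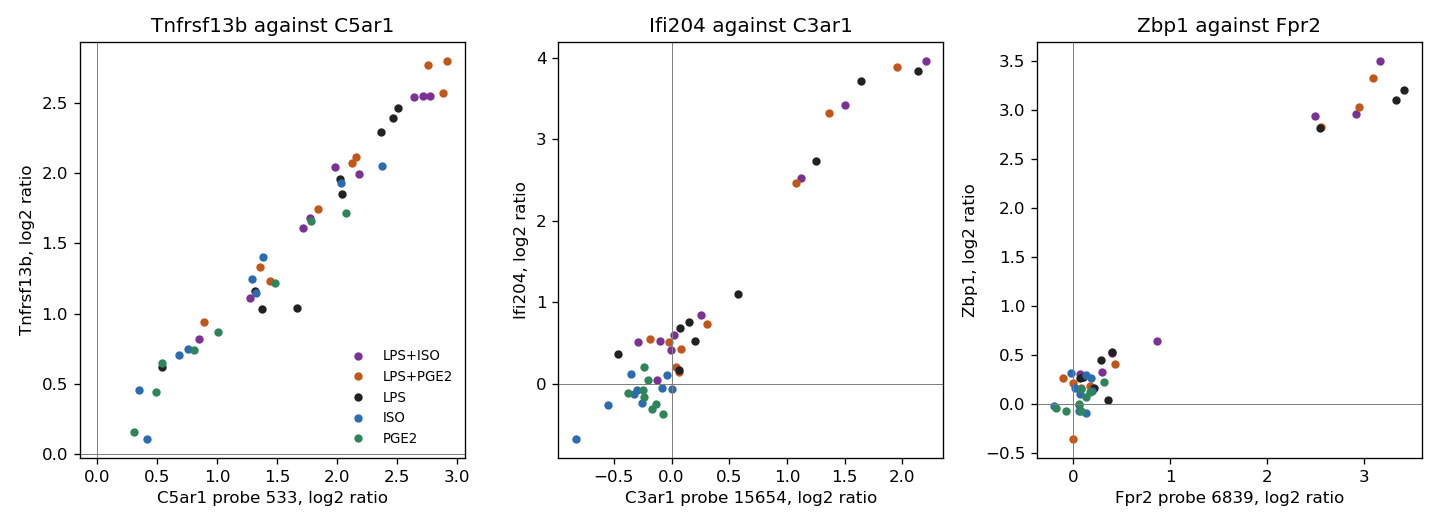
Log2 ratio of the most similar gene (y axis) against the log2 ratio of the receptor probe (x axis), 1 point for each of the 44 sets coloured by treatment. Tnfrsf13b and C5ar1 probe 533 form 1 continuous line that includes ISO and PGE2 sets, whereas Ifi204 with C3ar1 and Zbp1 with Fpr2 separate the 4 h sets with LPS from all others.

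The pathways around these receptors were read from lists, with LPS at 4 h, where 14.2% of all probes were higher, 15.1% were lower and the median was 0. Every probe of a gene was counted, so the counts in these lists are not of independent genes. Of 24 probes for complement components and regulators, 5 were higher (median 0.09). Cfb, the protease of the alternative pathway, was 7.40-fold higher (2.89 ± 0.37, SD, n = 3) and Clu, the complement regulator clusterin, 1.73-fold higher. Of 12 probes for ligands of formyl peptide receptors, 4 were higher and 1 lower (median 0.12). Saa3, a serum amyloid A, was 39.2-fold higher (5.29 ± 0.33, SD, n = 3) and Saa1 1.98-fold higher, while Cirbp, known chiefly as an RNA-binding protein, was 1.46-fold lower. Of 6 probes for synthesis and breakdown of platelet-activating factor, 4 were lower (median −0.24), among them Lpcat1 (−0.51 ± 0.17, SD, n = 3) and Pafah1b1 (−0.36 ± 0.28).

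Of 34 probes for other chemoattractant receptors, 10 were higher and 3 lower (median 0.05). The list includes Hcar2, which is a receptor for hydroxycarboxylic acids and niacin rather than for a chemoattractant. Hcar2 was 15.9-fold higher on probe 10056 and also higher on probe 18468 (3.61), and both count among the 10. The chemokine receptor Ccr1 was 7.58-fold higher on 1 probe and at 0.01 on another (9184) that was other than 0 on 18 arrays. Cxcr3 was 1.82-fold lower on 1 probe and at 0 on a second measured on 11 arrays. Cxcr4 was 1.55-fold lower on 1 probe and at −0.03 on a second. Of 11 probes for 7 of 10 listed genes of beta2 integrins and Fc receptors, 9 were higher and 1 lower (median 0.33). Fcgr1, the high-affinity IgG receptor, was 3.31-fold higher, Itgal, an integrin alpha chain, 2.18-fold higher, and Fcgr3 1.46-fold lower.

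Of 30 probes for signalling downstream of Gi-coupled receptors, 5 were higher and 4 lower (median 0.04). Fgr, a Src-family kinase of myeloid cells, was 5.08-fold higher and the kinase gene Prkcd 1.58-fold higher, whereas Vav1 was 1.30-fold and Pik3cg 1.27-fold lower. Prkcd was called on probes 1177, 7289 and 9443. All lower calls were probes of Vav1 (11514 and 16994) or Pik3cg (8947 and 3628). Of 6 probes for subunits of the NADPH oxidase, the enzyme of the respiratory burst, 3 were higher (median 0.17), with Cybb at 2.29-fold and Ncf4 at 1.21-fold (a second Ncf4 probe, 1180, gave 0.17 and did not pass). Of 19 probes for receptor desensitisation, 7 were higher and 4 lower (median 0.05). Rgs16 and Rgs1, which speed the switching off of G proteins, were 9.55-fold and 2.37-fold higher, and their relatives Rgs18 and Rgs14 were 1.74-fold and 1.41-fold lower. Rgs16 was called on probes 11002, 12255 and 16587, and Rgs1 on probes 15332 and 16174.

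With ISO at 4 h, where 1.95% of all probes were higher and 1.55% lower, 4 of the 11 integrin and Fc receptor probes and 5 of the 30 signalling probes were higher. Among these, probes 13688 and 15871 both belong to Fcgr2b, and probes 1177, 7289 and 9443 all belong to Prkcd. In the complement list 1 of 24 was higher, and in the desensitisation list 1 of 19. Among the platelet-activating factor genes 1 of 6 was lower, as was 1 of 34 among the other chemoattractant receptors. No probe was called among the formyl peptide receptor ligands or the oxidase subunits, where 2 of 12 and 2 of 6 had an unadjusted p under 0.05 in limma. Of the 9 macrophage probes 4 were higher with ISO at 4 h (median 0.28); their part in the C5ar1 result was not tested. None of the 28 probes for other cell types was called, and 4 had an unadjusted p under 0.05 in limma.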

How the data were processed

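RNA of treated and medium RAW 264.7 cells was compared on 88 two-colour custom Agilent arrays. The authors deposited 1 table of log2 ratios. Its scale was read from the values (largest absolute value 6.64, the log2 of a 100-fold limit). Image analysis, normalization, dye direction, centring and what an exact 0 stands for were not given in the sources used here. Every column had a median of 0. Groups, sets and dyes came from the labels. Ratios of arrays with treated RNA in Cy3 were turned in sign, and the 2 arrays of a set were averaged.

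Of 16281 probes, 13738 had 1 gene symbol, 52 several and 2491 none listed; 13694 symbols were found through Entrez identifiers in RefSeq GRCm38.p6. After leaving out 478 probes at 0 on every array, 13260 were fitted with limma 3.58.1 in R 4.3.3, with a mean for each of 15 groups and eBayes (29 residual degrees of freedom). Tests against 0 are two-sided, F tests cover several contrasts, and adjusted p is from Benjamini-Hochberg over all probes, with 0.05 as threshold. The fit was tested on simulated data.

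The receptors, gene lists and known LPS targets were chosen with earlier results of these data known. Genes of lists were named if called with LPS at 4 h, at most 4 a list and 2 a direction, by size of change. Set numbers were not used to pair the samples in the main fit. Over all times, deviations of sets with the same number correlated by a median of 0.09 (−0.41 to 0.75). For the same number and time the median was 0.35 (0.01 to 0.75, 86 pairs), against −0.05 for other set numbers. Effects of 11 other settings, and of 1 chosen after seeing the data, are in the closing section.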

Additional observations from a re-analysis of the deposited data

Results flagged for a closer look

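The response of 3 probes differed between 1, 2 and 4 h in every treatment with LPS, and that of 1 probe in every treatment, by the limma F test of the time contrasts. For C5ar1 probe 533 the adjusted p was 6.69e-05 with LPS and ISO, 9.56e-06 with LPS and PGE2, 0.00011 with LPS, 0.00553 with ISO and 0.027 with PGE2. For C3ar1 it was 2.92e-07, 4.48e-06 and 4.82e-07 with LPS and ISO, with LPS and PGE2 and with LPS. For Fpr2 it was 1.05e-12, 2.22e-13 and 8.89e-14 in the same order. For Ptafr the difference passed with LPS and PGE2 (0.0158) and was 0.276 without set 2 and 0.0965 without set 3. The difference of C5ar1 probe 533 between LPS with ISO and the sum of its single treatments had an adjusted p of 0.00829 in limma. No group had more than 3 sets, so no single set was tested as an outlier.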

How the results depend on the processing

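Of 42 receptor results past the threshold, 15 stayed past it under all 12 alternatives: C5ar1 probe 533 and Fpr2 at 4 h, and the between-time tests of C5ar1 probe 533, C3ar1 and Fpr2, in the 3 treatments with LPS. None changed sign. Values below are adjusted p in limma.

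Fitting only the groups of a comparison, which leaves few sets for the spread, lost 25. For C5ar1 probe 533 the values became 0.311 and 0.0628 with LPS and ISO at 1 and 2 h, 0.258 and 0.0632 with LPS and PGE2, 0.366 and 0.0582 with LPS, 0.259 and 0.245 with ISO at 2 and 4 h, 0.326 and 0.139 with PGE2, 0.304 and 0.226 between times for ISO and PGE2, and 0.14 for the departure of LPS and ISO from the sum. For probe 2878 they became 0.213, 0.196 and 0.17 at 2 h with LPS and ISO, LPS and PGE2 and LPS, and 0.113 with LPS and PGE2 at 4 h. C3ar1 gave 0.121, 0.0953 and 0.0633 at 4 h in the same 3 treatments, and Fpr2 0.423 with LPS and ISO at 2 h. Ptafr gave 0.445 and 0.28 at 2 h with LPS and PGE2 and with LPS, 0.0561 with LPS and ISO at 4 h and 0.237 between times with LPS and PGE2.

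With treated RNA in Cy3 only, 10 were lost: Ptafr with LPS and ISO at 4 h (0.213), LPS and PGE2 at 2 and 4 h (0.0585 and 0.0501), LPS at 2 and 4 h (0.522 and 0.0553) and between times (0.111), probe 2878 with LPS and ISO at 2 h (0.0921), LPS and PGE2 at 4 h (0.279) and LPS at 2 h (0.221), and probe 533 between times with PGE2 (0.0863). With treated RNA in Cy5 only, 3 were lost: probe 2878 at 2 h with LPS and ISO (0.144) and LPS and PGE2 (0.252), and Fpr2 with LPS and ISO at 2 h (0.25). Averaging the probes of a gene lost the between-time call of C5ar1 with PGE2 (0.092). Where no construction shows it, the cause was not tested.

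Leaving out sets 1, 2 and 3 lost 7, 8 and 9. The ranges for probe 533 were 0.129 to 1 for the departure, 0.0258 to 0.304 and 0.136 to 0.989 between times for ISO and PGE2, and 0.0527 to 0.646 for PGE2 at 2 h. For probe 2878 they were 0.00352 to 0.0681, 0.00297 to 0.0527 and 0.00161 to 0.0516 at 2 h with LPS and ISO, LPS and PGE2 and LPS, and 0.0109 to 0.0569 with LPS and PGE2 at 4 h. Fpr2 with LPS and ISO at 2 h gave 0.0477 to 0.165. Ptafr gave 1.43e-05 to 0.321 and 0.000123 to 0.377 at 2 h with LPS and PGE2 and LPS, and 0.00221 to 0.276 between times with LPS and PGE2.

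Set number as a replicate block lost none and gained 6, among them C3ar1 with ISO at 2 h (0.00506) and the departure of probe 533 with LPS and PGE2 (0.045). Over all times the numbers did not pair the samples by the check used. A block within each time, chosen after seeing the data, because deviations of sets with the same number and time correlated by a median of 0.35 (0.01 to 0.75, 86 pairs), lost none and gained 13; it gave that departure a value of 0.00152 and C5ar1 probe 533 an adjusted p of 0.0126 with ISO and 0.0296 with PGE2 at 1 h. In all, 24 results not past the threshold passed it under at least 1 alternative, 14 of them C5ar1 probe 2878 when averaged with probe 533.

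Counts over all probes moved by over 1.5 times under some alternatives. As the reported count and its range over the alternatives, those against medium at 1, 2 and 4 h were 929 (1 to 2206), 1798 (18 to 2910) and 3855 (519 to 4993) with LPS and ISO, 996 (0 to 2190), 1735 (0 to 2819) and 4039 (577 to 5129) with LPS and PGE2, 1200 (2 to 2556), 2040 (90 to 3209) and 3889 (1531 to 4958) with LPS, 113 (0 to 700), 253 (0 to 750) and 464 (0 to 1477) with ISO, 45 (0 to 563), 62 (0 to 370) and 138 (0 to 791) with PGE2. Between times they were 2225 (890 to 3880) with LPS and ISO, 2273 (889 to 3949) with LPS and PGE2, 2327 (1118 to 3810) with LPS, 73 (0 to 752) with ISO, 6 (0 to 619) with PGE2. Against LPS alone they were 1 (0 to 11), 1 (0 to 22), 17 (0 to 69) with LPS and ISO and 0 (0 to 3), 0 (0 to 4), 3 (0 to 44) with LPS and PGE2. For the departure from the sum they were 10 (0 to 109) with LPS and ISO and 0 (0 to 19) with LPS and PGE2. No intensities were used here, so what signal over background limits is unknown.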
